A study of Mus musculus with 3 samples.

Results

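Calcitriol and calcidiol were compared directly at an equal dose and time in mouse kidney cells that lack the enzyme converting one into the other. The comparison uses 2 of the 3 arrays of the study, 1 for each compound, and covers the 15755 genes of 37008 on the array design that were well above background on both. Of these, 11501 carried a gene symbol. The cells were mpkDCT cells, a mouse line of the distal convoluted tubule, with Cyp27b1 knocked out by CRISPR-Cas9, and the knockout was shared by all 3 groups. The sources used here do not say whether the knockout line was 1 clone. From 24 h before treatment the medium was free of phenol red and held 2% charcoal-stripped serum, and the cells then received vehicle, calcitriol at 1e-07 M or calcidiol at 1e-07 M for 24 h. The treatment tag of the third sample names calcidiol, whereas its free text once writes the compound with an additional hydroxyl group. Sample titles also carry an unexplained tag, siCT. The vehicle array enters no difference below and is given only as a level.

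Calcidiol, 25-hydroxyvitamin D3, is the circulating storage form of vitamin D. Calcitriol, 1,25-dihydroxyvitamin D3, carries an additional hydroxyl group on the A ring and binds the vitamin D receptor with much higher affinity. Cyp27b1 encodes the hydroxylase that adds this group, and Cyp24a1 encodes the hydroxylase that begins the breakdown of both compounds. The receptor binds DNA as a heterodimer with a retinoid X receptor, classically at direct repeats of a hexamer, and in the distal tubule it is known for genes of calcium handling. The question the design addresses is how far calcidiol itself, in cells without the converting enzyme, matches calcitriol gene by gene.

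The promoters of 4 genes that were at least 2-fold higher with calcitriol are shown because each holds a receptor half-site hexamer in the 250 bases before its start. The sequences are from RefSeq on build GRCm38.p6, are printed in the direction of transcription and end at the base before the start. Capitals mark 4 hexamers on either strand, AGGTCA or AGTTCA as well as GGGTCA or GGTTCA. S100g lies on the minus strand of chrX:162964600-162964849, Cldn2 on the plus strand of chrX:139800558-139800807, Slco1a6 on the minus strand of chr6:142186150-142186399 and Cyp1b1 on the minus strand of chr17:79715062-79715311. The choice of these 4 was made after their values were seen. Of 4 other higher genes looked up in the same way, Igf1 held 1 hexamer, whereas Spp1 (in both of its promoters), Stac and Alcam held 0.
S100g: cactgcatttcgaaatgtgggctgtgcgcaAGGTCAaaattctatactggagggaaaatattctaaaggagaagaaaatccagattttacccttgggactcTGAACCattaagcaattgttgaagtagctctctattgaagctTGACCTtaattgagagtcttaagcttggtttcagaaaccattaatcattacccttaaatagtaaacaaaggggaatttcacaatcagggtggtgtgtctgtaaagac
Cldn2: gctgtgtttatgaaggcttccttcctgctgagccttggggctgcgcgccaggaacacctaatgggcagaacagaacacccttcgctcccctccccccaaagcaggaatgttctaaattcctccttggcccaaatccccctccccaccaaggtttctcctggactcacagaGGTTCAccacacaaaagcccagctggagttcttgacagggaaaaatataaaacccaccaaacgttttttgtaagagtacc
Slco1a6: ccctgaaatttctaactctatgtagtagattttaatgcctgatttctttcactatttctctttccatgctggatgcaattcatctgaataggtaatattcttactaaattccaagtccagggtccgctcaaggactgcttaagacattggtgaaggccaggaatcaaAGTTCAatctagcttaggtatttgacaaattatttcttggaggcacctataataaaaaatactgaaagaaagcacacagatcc
Cyp1b1: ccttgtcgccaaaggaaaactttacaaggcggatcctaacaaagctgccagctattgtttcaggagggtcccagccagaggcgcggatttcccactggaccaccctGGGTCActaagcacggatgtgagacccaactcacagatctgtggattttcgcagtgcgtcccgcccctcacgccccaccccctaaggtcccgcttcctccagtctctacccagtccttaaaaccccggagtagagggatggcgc

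Strands are given relative to the gene. The S100g window holds 3 hexamers, of which the farthest begins 220 bases before the start on the plus strand, the next 149 bases before it on the minus strand and the last nearer to the start, also on the minus strand. The other windows hold 1 each on the plus strand, 80 bases before the start in Cldn2, 83 in Slco1a6 and 144 in Cyp1b1. A direct repeat of these hexamers spaced by 3 bases, on either strand, was found in 13 of 32851 promoters of this length (0.0396%). It was found in 0 of the 64 promoters of 51 genes at least 2-fold higher with calcitriol and in 0 of the 121 promoters of 80 genes at least 2-fold lower. At least 1 hexamer was in 38.6% of all promoters and 33.5% of those of genes measured on both arrays. The share was 35.9% for the higher genes and 35.5% for the lower genes. These shares lie close together. Hexamers numbered 3 or more, as in S100g, in 3 of the 64 promoters of higher genes (4.69%) and 0 of the 121 of lower genes. That share was 0.914% for genes measured on both arrays and 1.84% for all promoters. A match is a run of letters, not a measured binding site. The counts of hexamers were added after the data were seen.

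The level with calcitriol exceeded that with calcidiol by at least 2-fold in 74 genes, which is 0.47% of the genes measured, and was at least 2-fold lower in 168, which is 1.07%. Together 242 genes were at least 2-fold apart (1.54%). Of the higher genes 63 had a gene symbol, and of the lower genes 97. At 3-fold the numbers were 22 higher and 24 lower, and at 4-fold 8 higher and 6 lower. Levels are log2 processed signals minus the 75th percentile of the array, so that 0 is the level of that percentile, and a difference of 1 is 2-fold. Each group was 1 array, so differences are described by their size, without replicates or p-values. An error written after ± is a technical one, computed from the spot errors in the scanner files, and covers no variation between cultures. Its median over all genes was 0.20.

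The balance of higher and lower genes depended on how the arrays were centred. The higher genes were 30.6% of those at least 2-fold apart. The share was 59.8% (122 higher and 82 lower) when each array was centred on its median, which moved the median difference of all genes from 0.00 to 0.18, and 41.8% (46 and 64) when 32 was added to every signal. No direction is therefore read from the balance of the counts. Over all genes the central 95% of differences lay between -0.75 and 0.55, with a standard deviation of 0.33 and 50.6% of genes above 0. Of 300 probes printed 10 times on each array, 285 were measured on both. Of these, 0 were at least 2-fold apart, and their differences ran from -0.89 to 0.60. Each such value averages the spots of its probe, so the range cannot stand for genes read at a single spot.

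**Figure D1:**
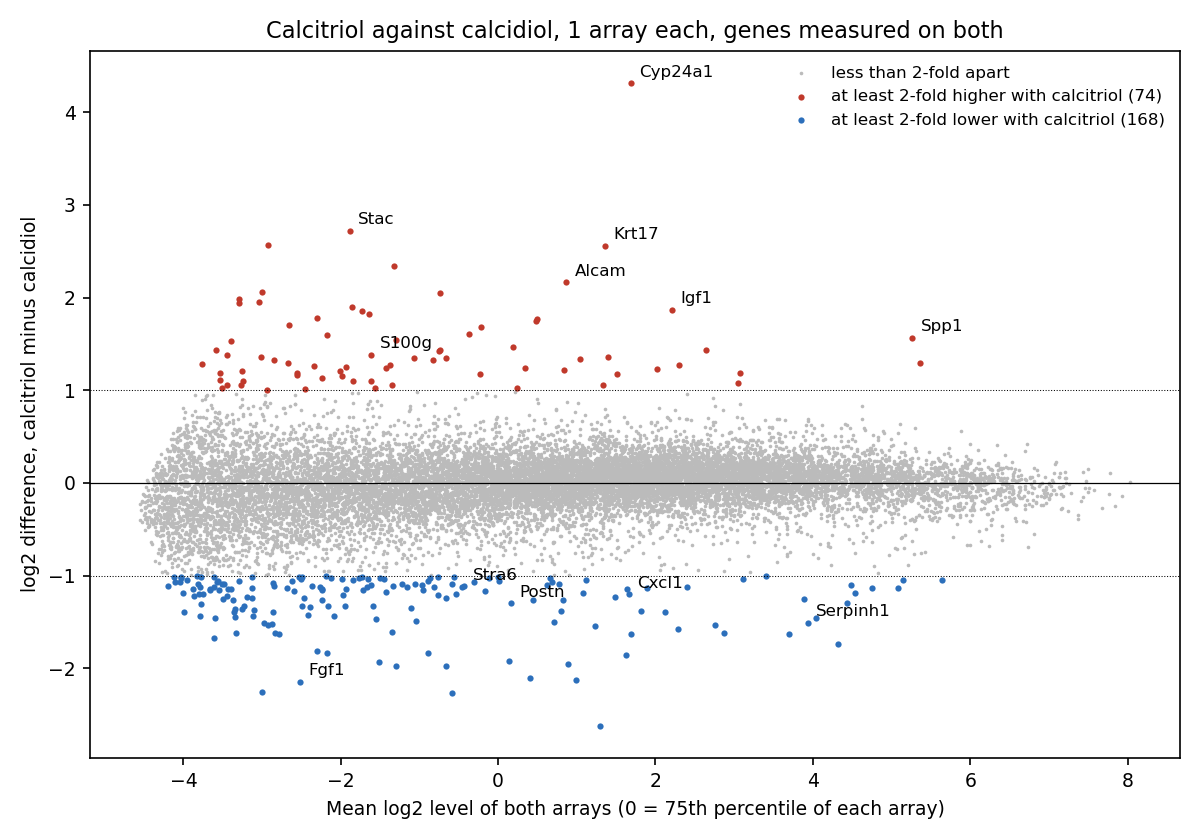
Log2 difference, calcitriol minus calcidiol (y axis), against the mean log2 level of both arrays (x axis, 0 is the 75th percentile of each array) for the 15755 genes measured on both arrays, 1 point a gene. Red points are the 74 genes at least 2-fold higher with calcitriol and blue points the 168 at least 2-fold lower; Cyp24a1 stands highest at 4.32, and the spread of grey points widens toward low levels.

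Genes at low levels and in one region of the array were more often 2-fold apart. Among the 2022 genes with a mean level from -5 to -3, 0.791% were higher and 2.42% lower, against 0.123% and 0.431% of the 3250 genes with a mean level from 3 to 9. In array rows 7 to 48, which held the probes of 1879 genes, the median difference was 0.13, and 0.958% of genes were higher and 2.29% lower. In rows 337 to 378, with 1677 genes, 0.537% were higher and 0.298% lower. Without rows 7 to 48 there were 56 higher and 125 lower genes, and this region was chosen after the data were seen. Of the 47 genes named below that were at least 2-fold apart, 35 had a value without these rows. The compounds occupied different places on the slide, so place and compound cannot be told apart.

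Cyp24a1 differed most between the compounds of all genes measured on both arrays. Its level was -7.11 with vehicle, where the probe was not well above background, 3.84 with calcitriol and -0.48 with calcidiol. The calcitriol array was thus far above both others, and the calcidiol array was itself well above background. The difference was 4.32 ± 0.20, a 19.9-fold higher signal with calcitriol, read at the probe at chr2:170308865-170308924 (mm9). The processed signals were 2.68, 5443 and 288.5 in the same order.

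Genes of calcium passage and of the cell border were among the higher genes. S100g, which encodes the calcium-buffering protein calbindin-D9k, had a level of -6.74 with vehicle (not well above background), -0.92 with calcitriol and -2.31 with calcidiol. It was 2.61-fold higher with calcitriol (difference 1.39 ± 0.22), and its vehicle level lay far below both. Cldn2, a claudin that forms a cation- and water-permeable tight-junction pore, had levels of -3.83, 0.29 and -1.76 with vehicle, calcitriol and calcidiol and was 4.14-fold higher with calcitriol (2.05 ± 0.21). Alcam, an adhesion molecule of the immunoglobulin family, had levels of -1.41, 1.95 and -0.22 and was 4.50-fold higher (2.17 ± 0.20). For both genes calcidiol lay between vehicle and calcitriol. Krt17, an intermediate filament keratin, had levels of -4.33, 2.64 and 0.08, which is a 5.90-fold difference between the compounds (2.56 ± 0.20). Krt7, a keratin of simple epithelia, had levels of -3.96, -1.97 and -3.14 and was 2.24-fold higher with calcitriol (1.16 ± 0.24).

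Secreted factors and receptors with the same order of levels included osteopontin, Igf1 and the growth hormone receptor. Spp1, which encodes the secreted phosphoprotein osteopontin, was the brightest of the named higher genes, with levels of 2.19 with vehicle, 6.04 with calcitriol and 4.48 with calcidiol, and was 2.96-fold higher with calcitriol (1.57 ± 0.20). Igf1, a growth factor, had levels of 0.66, 3.14 and 1.27 and was 3.66-fold higher (1.87 ± 0.20). Calcidiol lay between vehicle and calcitriol, nearer to vehicle, and the 2 other detected probes of Igf1 gave a median difference of 0.88. Ghr, the growth hormone receptor, had levels of -0.78, 1.35 and -0.40 and was 3.37-fold higher (1.75 ± 0.20). The calcitriol array stood apart from the other two for Ghr, and 3 other probes gave a median of 1.66. Npr3, the clearance receptor for natriuretic peptides, had levels of -0.40, 2.94 and 1.66 and was 2.42-fold higher (1.28 ± 0.20), with 1.5 by another probe.

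Enzymes and transporters formed the next group. Cyp1b1, a cytochrome P450 that oxidises steroids and polycyclic hydrocarbons, had levels of -3.18, 0.43 and -1.17 with vehicle, calcitriol and calcidiol and was 3.04-fold higher with calcitriol (1.60 ± 0.21). Its probe lay in the 7th row or column from the array edge. Slco1a6, an organic anion transporter, had levels of -3.90, -0.03 and -1.46 and was 2.69-fold higher (1.43 ± 0.21). Sult1c2, a cytosolic sulfotransferase, had levels of -1.82, 1.38 and -0.39 and was 3.41-fold higher (1.77 ± 0.20). In each of these 3 genes calcidiol lay between vehicle and calcitriol. Fbp2, a fructose bisphosphatase, had levels of -4.48, -1.41 and -3.19 (1.78 ± 0.24). Plpp3, a phosphatase of lysophosphatidic acid and related lipids, had levels of -1.72, 0.62 and -1.06 (1.68 ± 0.21).

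For adaptor and cytoskeletal genes the levels with calcidiol were often near the limit of detection. Stac, an adaptor protein of voltage-gated calcium channels, had levels of -3.80 with vehicle, -0.53 with calcitriol and -3.25 with calcidiol and was 6.60-fold higher with calcitriol (2.72 ± 0.24), the second largest difference among named genes. Calcidiol lay between vehicle and calcitriol in this gene, nearer to vehicle. Rapsn, which encodes the acetylcholine receptor clustering protein rapsyn, had levels of -4.79 (not well above background), -1.64 and -4.21 and was 5.94-fold higher (2.57 ± 0.33). Its processed signal with calcidiol was 21.6, close to the lowest signal well above background on that array, 17.9. Dcdc2a, a doublecortin-domain protein of cilia, had levels of -4.01, -0.72 and -2.55 (1.83 ± 0.22), with 2.00 by another probe. Fyb2, an adaptor protein, had levels of -5.78 (not well above background), -2.32 and -4.26 (1.94 ± 0.36), and Fam222a had levels of -5.40 (not well above background), -1.81 and -3.51 (1.71 ± 0.27). Both rest on faint calcidiol signals. With normexp background correction followed by quantile normalisation the differences were 0.65 for Fyb2, 0.64 for Fam222a, 0.67 for Krt7 and 0.99 for S100g, all under 2-fold, and Krt7 was also under 2-fold with the added offset of 32 (0.80).

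Tubgcp5, a subunit of the gamma-tubulin complex, had a different order. Its levels were -0.14 with vehicle, -0.15 with calcitriol and -2.50 with calcidiol (2.35 ± 0.30). Vehicle and calcitriol coincided and the calcidiol array was low. Another probe of the gene gave -0.69, the opposite direction, and the mean over its probes was 0.83, under 2-fold.

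**Figure D2:**
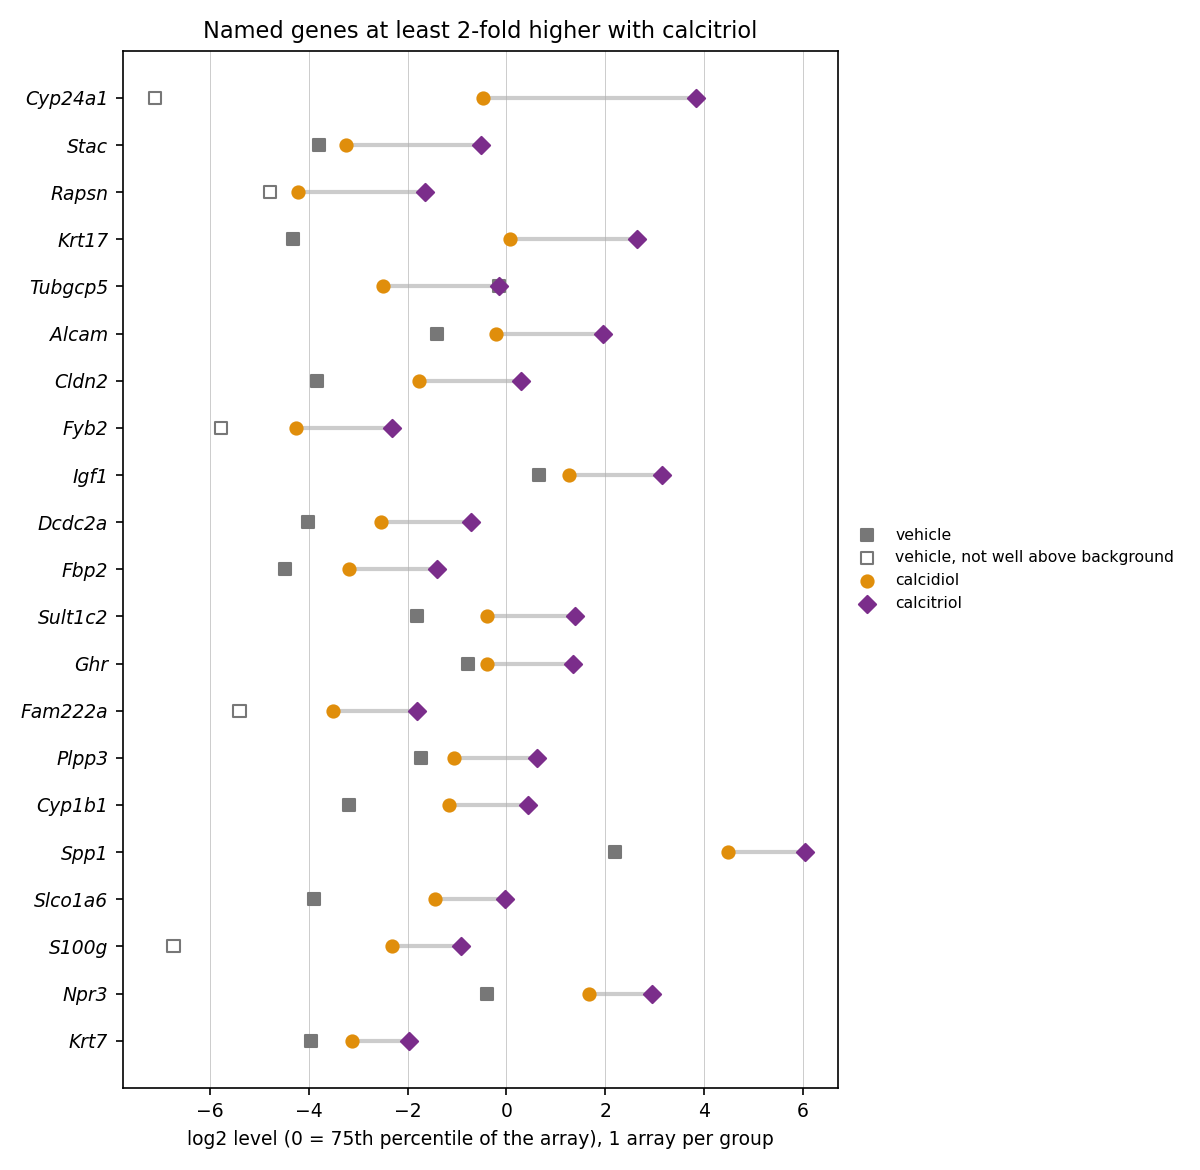
Log2 level (x axis, 0 is the 75th percentile of the array) on each of the 3 arrays for the 21 named genes at least 2-fold higher with calcitriol than with calcidiol, ordered by that difference. Squares are vehicle (open where not well above background), circles calcidiol and diamonds calcitriol, 1 array each with no error bars; the grey line spans the compared pair, and calcidiol lies between vehicle and calcitriol in every gene drawn except Tubgcp5.

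Fgf1, a fibroblast growth factor, had the largest negative difference among named genes. Its levels were -0.85 with vehicle, -3.59 with calcitriol and -1.45 with calcidiol, a 4.42-fold lower level with calcitriol (-2.14 ± 0.26). Calcidiol lay below vehicle, and calcitriol lay lowest. In several other genes vehicle lay near calcidiol, and calcitriol lay below both. Gtse1, a microtubule-associated protein of the G2 and S phases, had levels of 0.16, -1.66 and 0.32 with vehicle, calcitriol and calcidiol and was 3.94-fold lower with calcitriol (-1.98 ± 0.21). Serpinh1, the collagen chaperone of the endoplasmic reticulum, had levels of 4.87, 3.18 and 4.69 and was 2.84-fold lower (-1.51 ± 0.20). Cav1, the main coat protein of caveolae, had levels of -1.96, -3.60 and -1.97 and was 3.11-fold lower (-1.63 ± 0.25), with -1.13 by another probe. Cd22, a sialic acid-binding lectin known from B cells, had levels of -2.24, -3.69 and -2.15 (-1.53 ± 0.27). Tmem174, a transmembrane protein, had levels of -1.70, -3.21 and -1.40 (-1.81 ± 0.24). Under normexp Cav1 was at -0.69 and Cd22 at -0.64, and Cd22 was at -0.92 with the offset of 32, all under 2-fold.

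In a second pattern, which Fgf1 shared, both compounds lay below vehicle, and calcitriol lay lowest. Postn, the matricellular protein periostin, had levels of 2.16 with vehicle, -0.48 with calcitriol and 0.82 with calcidiol and was 2.46-fold lower with calcitriol (-1.30 ± 0.20), with a median of -1.23 over 2 other probes. Dcn, the proteoglycan decorin, had levels of -1.18, -3.55 and -2.16 and was 2.62-fold lower (-1.39 ± 0.26). Both are also markers of fibroblasts. Of 8 fibroblast markers, 3 were measured (Postn, Dcn and Col1a1), Col1a2, Col3a1, Pdgfra and Pdgfrb were not well above background on either array, and Lum was printed only in the region left out. The summed level of the 3, in multiples of the 75th percentile, was 5.56 with vehicle, 1.07 with calcitriol and 2.37 with calcidiol. Whether a change in cell make-up has a part in this was not tested, and in these samples fewer cells of a type and less RNA per cell cannot be told apart. Agt, angiotensinogen, had levels of 1.08, -0.51 and 0.50 (-1.02 ± 0.21). Gc, which encodes the vitamin D-binding protein of serum, had levels of -1.87, -4.02 and -2.67 (-1.36 ± 0.33), from a faint probe in the 7th row or column from the edge. With the offset of 32 Dcn was at -0.845, Gc at -0.71 and Agt at -0.94, and under normexp they were at -0.54, -0.62 and -0.915, all under 2-fold.

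In the third pattern the calcidiol array stood above both others. Crot, a peroxisomal carnitine acyltransferase, had levels of -3.25 with vehicle, -3.09 with calcitriol and -1.26 with calcidiol (-1.83 ± 0.23). When all rows and columns were kept, so that an edge probe of Crot was read, its difference was 0.25, the opposite direction. Cxcl1, a neutrophil-attracting chemokine, had levels of 1.24, 1.06 and 2.26 and was 2.30-fold lower with calcitriol (-1.20 ± 0.20). Stra6, the receptor for retinol-binding protein, had levels of -1.92, -0.99 and 0.13 (-1.12 ± 0.21), so that calcitriol lay between vehicle and calcidiol. Mettl7a2, a methyltransferase-like protein, had levels of 2.27, 1.99 and 3.52 (-1.54 ± 0.20). B4galnt2, a glycosyltransferase, had levels of -3.04, -3.72 and -2.22 (-1.51 ± 0.26). It was at -0.89 with the offset of 32 and at -0.65 under normexp, and Crot was at -0.96 under normexp, all under 2-fold. Akap7, an anchoring protein of protein kinase A, had levels of 0.95, -0.10 and 1.86 (-1.96 ± 0.20), and Llph, a nucleolar protein, 0.17, -0.82 and 1.1 (-1.92 ± 0.21). In both genes vehicle lay midway between the compounds.

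Smaller negative differences were read in 6 list members near the 2-fold threshold. Hk2, a hexokinase, had levels of 0.08, -1.13 and -0.05 with vehicle, calcitriol and calcidiol (-1.09 ± 0.21). C1s1, a complement protease, had levels of -0.59, -1.71 and -0.59 (-1.12 ± 0.21). Dusp10, a phosphatase of stress-activated kinases, had levels of -1.94, -3.04 and -2.02 (-1.02 ± 0.23), and Egr2, an immediate early transcription factor, -1.71, -3.0 and -1.99 (-1.01 ± 0.23). In these 4 genes calcitriol was low and the other two arrays lay together. With each array centred on its median, Hk2 (-0.91), C1s1 (-0.95), Dusp10 (-0.85), Egr2 (-0.84), Agt (-0.84) and Stra6 (-0.94) were all under 2-fold, and all of them were so under normexp too. Just inside the threshold lay DXBay18 (1.01), Utp15 (1.02) and Tubb3 (1.02) on the higher side and Ero1a (-1.0) and Tdgf1 (-1.01) on the lower. Just outside lay Srcin1 (0.98), Nrg4 (0.98), Akna (0.97), Fhl3 (-0.99), Ciart (-0.98) and Rec8 (-0.98).

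**Figure D3:**
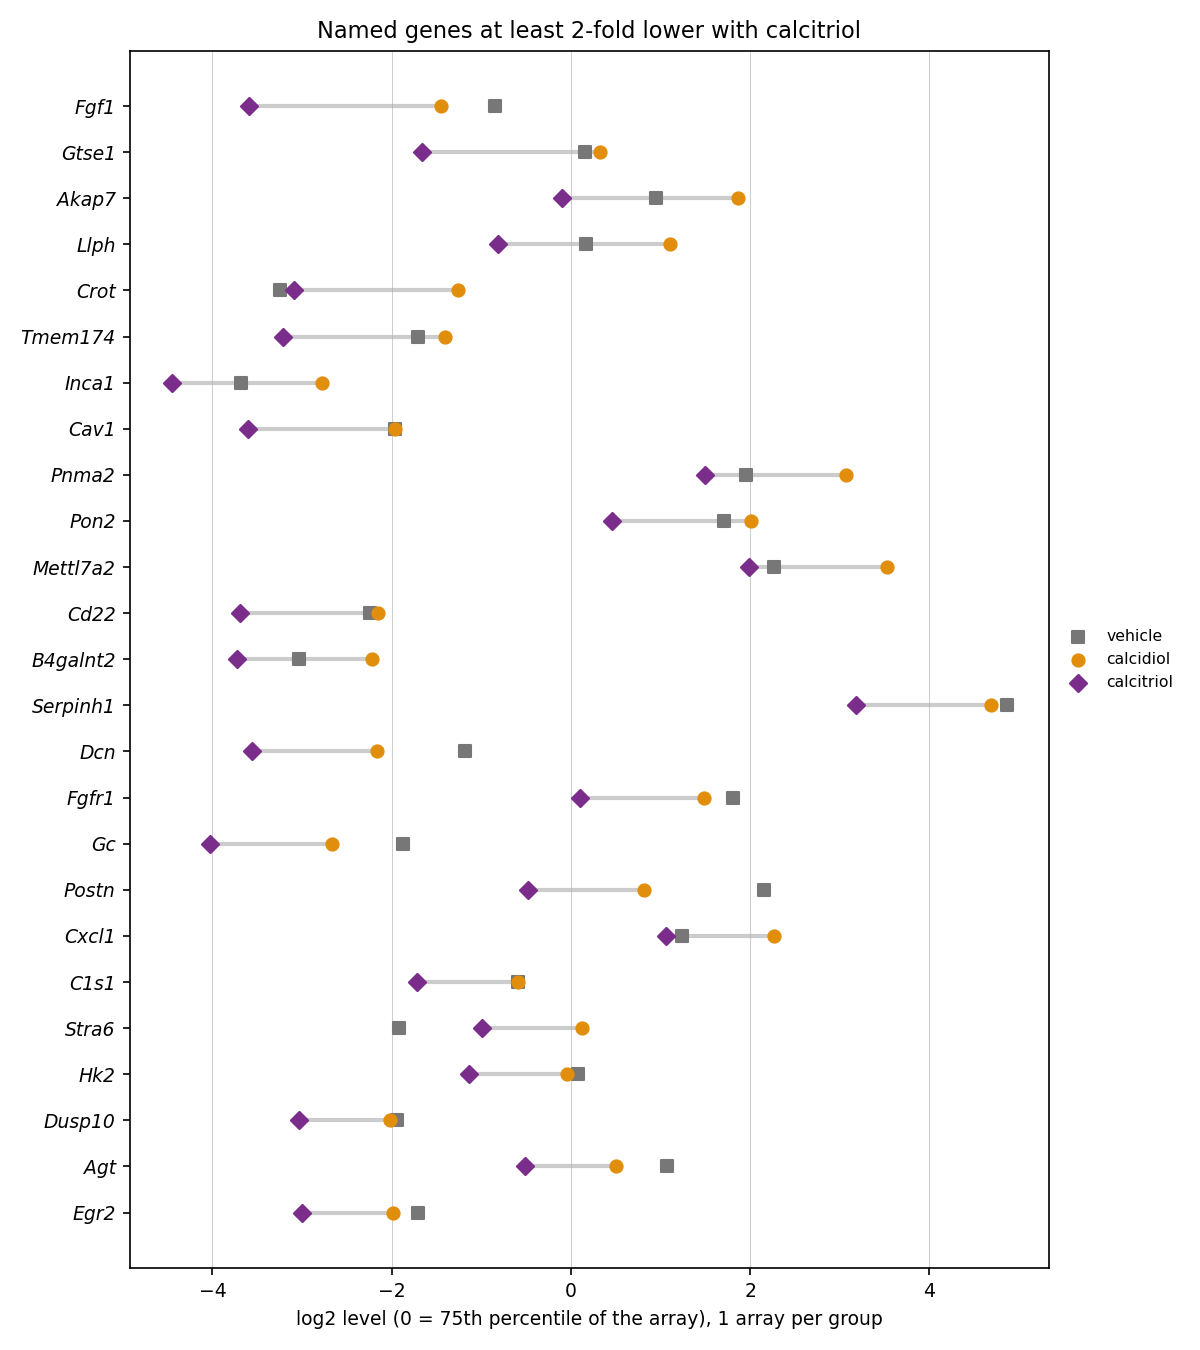
Log2 level (x axis, 0 is the 75th percentile of the array) on each of the 3 arrays for named genes at least 2-fold lower with calcitriol than with calcidiol, first those with the largest difference and then list members. Squares are vehicle, circles calcidiol and diamonds calcitriol, 1 array each with no error bars; vehicle lies near calcidiol for genes such as Cav1 and Serpinh1, above both compounds for Postn and Dcn, and near calcitriol for Crot and Cxcl1.

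Genes with more than 1 detected probe offered a check on single probes. Of the 74 higher genes, 16 had another detected probe, which pointed the same way in 13 and by at least 0.5 in 10. The median of these other probes was 1.00, beside 1.39 by the brightest probe. Of the 168 lower genes, 21 had another detected probe, which pointed the same way in 15 and by at least 0.5 in 6, with a median of -0.19 beside -1.30. Over all 5434 genes with another detected probe, 3283 pointed the same way and 347 by at least 0.5. Higher genes in which another probe differed by at least 0.5 the same way included Apcdd1 (1.43 and 1.35), an inhibitor of Wnt signalling, Tesc (1.36 and 1.41), a calcium-binding protein, Ckb (1.24 and 1.39), a creatine kinase, Smox (1.23 and 1.47), spermine oxidase, and Gpc4 (1.18 and 0.94), a glypican. Among the lower genes they were Postn, Cav1, Phactr1 (-1.15 and -1.11), Thsd7a (-1.11 and -0.92), Rasgrp2 (-1.11 and -0.71) and Clic5 (-1.12 and -0.69).

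The other probes of several lower genes showed almost no difference between the compounds. For Akap7 they gave a median of -0.17, for Inca1 -0.21 beside -1.67 ± 0.36, for Pnma2 -0.28 beside -1.57 ± 0.20, and for Pon2, a paraoxonase, 0.00 beside -1.55 ± 0.20. For Fgfr1, a fibroblast growth factor receptor with levels of 1.80, 0.10 and 1.49 at its brightest probe (-1.39 ± 0.20), they gave 0.04. Probes of a gene can read different transcripts, which was not tested. By the mean over detected probes the differences were -0.77 for Akap7, -0.94 for Inca1, -0.92 for Pnma2, -0.36 for Pon2 and -0.43 for Fgfr1, all under 2-fold. Inca1 was also at -0.80 with the offset of 32 and at -0.52 under normexp. Pnma2 was -0.27 with the outermost 12 rows and columns left out.

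**Figure D4:**
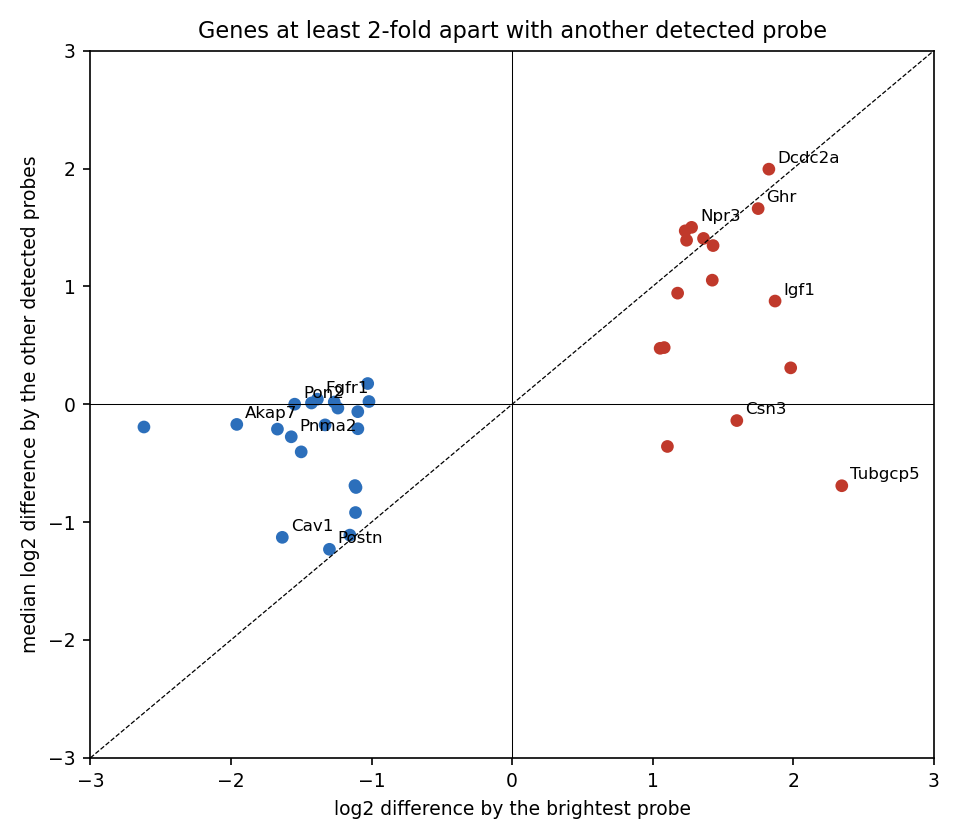
Log2 difference, calcitriol minus calcidiol, by the brightest probe (x axis) and as the median of the gene's other detected probes (y axis), for the 16 higher genes (red) and 21 lower genes (blue) with another detected probe; the dashed line marks equal values. Dcdc2a, Ghr, Npr3 and Postn lie near the line, while Tubgcp5, Akap7, Pon2 and Fgfr1 lie far from it.

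Some genes were well above background with one compound only, and for these a bound is given. The bright array's level is set against a floor on the other array, namely its lowest level well above background, or the level of the dim probe where that is higher. By this measure calcitriol gave at least 2-fold more in 38 genes, 24 of them with a symbol. It gave at least 2-fold less in 133, 66 with a symbol. For scale, 15755 genes were measured on both arrays and 16836 were well above background on at least 1. The lowest level well above background was -4.78 with calcitriol and -4.48 with calcidiol. The same bright level can thus give a larger bound on the lower side, and the balance of these counts gives no direction. Bhmt, the betaine-homocysteine methyltransferase, was at least 6.81-fold higher with calcitriol, with a level of -1.71 there and no level well above background with vehicle or calcidiol. The same held for Fgf5, a fibroblast growth factor, at least 6.35-fold higher, Arg2, the mitochondrial arginase, at least 3.87-fold, Prelp, a matrix proteoglycan, at least 3.68-fold, and Ms4a6b at least 3.65-fold. In the other direction Il22ra1, a subunit of the interleukin-22 receptor, was at least 6.12-fold lower with calcitriol, with levels of -3.94 with vehicle and -2.17 with calcidiol. Zfp536, at least 6.16-fold lower, Car10, at least 4.63-fold, Ccdc180, at least 4.26-fold, and Obox7, at least 4.19-fold, were well above background on the calcidiol array alone.

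Of the vitamin D machinery, the receptor itself differed little between the compounds. Vdr had levels of 2.08 with vehicle, 1.87 with calcitriol and 1.78 with calcidiol, a difference of 0.09 ± 0.20, smaller than its technical error. Of 15 genes for the receptor, its partners and coregulators 14 were measured, none was at least 2-fold apart, and they ran from Ep300 at -0.46 to Med1 at 0.37 with a median of 0.04. Of 11 genes of vitamin D hydroxylation, transport and uptake 7 were measured, with Cyp24a1 higher, Gc lower and a median of -0.00. Cyp2r1, a 25-hydroxylase, was at -0.65 ± 0.24, and the endocytic receptors Lrp2 and Cubn were at 0.50 and -0.16. The Cyp27b1 probe did not rise well above background on the 3 arrays, with signals of 2.91, 7.05 and 3.82 for vehicle, calcitriol and calcidiol, and its place relative to the edited site is not stated in those sources. Cyp27a1, Slc12a3 and Sgk1 were printed only in the region left out.

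Of 31 known receptor target genes 15 were measured, and 4 were at least 2-fold higher with calcitriol (Cyp24a1, Cldn2, Spp1 and S100g) and 1 lower (Dusp10), beside 0.47% and 1.07% of all genes. The median of the 15 was 0.22, with 10 above 0, beside a median of 0.00 over all genes, and the median relative to all genes lay between 0.06 and 0.22 over 6 ways of scaling. The remaining members lay under 2-fold. Among them was Atp2b1, the plasma membrane calcium pump, at 0.22, with -0.26 by another probe. Cdkn1a, the cyclin-dependent kinase inhibitor p21, was at -0.93 ± 0.20. Targets were listed with earlier results of these data known, so the count is a description. Of 19 genes of calcium and magnesium transport 11 were measured, S100g was the one at least 2-fold higher, and the median was 0.10. Trpv5, Trpv6 and Calb1 lacked a signal well above background on all 3 arrays. Of 24 claudin and tight-junction genes 11 were measured, with Cldn2 higher and a median of 0.09. Of 18 keratin and desmosome genes 8 were measured, with Krt17 and Krt7 higher and a median of -0.02.

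Other genes of the fixed set lay under 2-fold. Srcin1, an adaptor of Src kinase, had levels of -4.58 with vehicle, 0.71 with calcitriol and -0.28 with calcidiol (0.98 ± 0.20). Both compounds lay far above vehicle in this gene. Cebpd, a transcription factor of the C/EBP family, differed by 0.47 and C3, the central complement protein, by 0.46. Mep1a, the metalloprotease meprin alpha, differed by 0.52 ± 0.21. Both compounds lay above vehicle in these genes too. Levels with vehicle, calcitriol and calcidiol were 0.11, 3.31 and 2.84 for Cebpd and 2.38, 5.06 and 4.60 for C3. For Mep1a they were -4.805 (not well above background), -0.41 and -0.93. Outside the fixed set lay Scnn1a, a subunit of the epithelial sodium channel and the highest member of the sodium transport list. It was at 0.91 ± 0.21, with 0.06 by another probe.

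Genes of glycolysis and of sterol synthesis lay mostly lower with calcitriol, by less than the single genes above. Of 26 genes of glycolysis and the hypoxia response 22 were measured, 20 were below 0 and 2 above, and the median was -0.27, the lowest of 33 lists at this scaling. Hk2 was the one at least 2-fold lower. Pfkp, a phosphofructokinase, was at -0.96 with -0.89 over 2 other probes, Slc2a1, a glucose transporter, at -0.81 and Ankrd37, a gene of the hypoxia response, at -0.81, while Vegfa was at 0.21. Of 26 sterol synthesis genes 25 were measured, 22 were below 0, none was at least 2-fold apart, and the median was -0.20, with Nsdhl at -0.46 and Insig1 at -0.42. Relative to the median of all genes, glycolysis lay between -0.27 and -0.24 and sterol synthesis between -0.24 and -0.16 over 6 ways of scaling. The difference was under 2 technical errors in 13 of the 22 glycolysis genes and in 23 of the 25 sterol genes.

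The quartiles of all genes were -0.17 and 0.15. The highest list median, 0.23, was that of the natriuretic peptide, angiotensin and endothelin genes, of which 8 of 19 were measured, 4 above 0 and 4 below, from Agt to Npr3. Of 25 interferon-stimulated genes 22 were measured, 18 below 0 and none 2-fold apart, with a median of -0.17 and the lowest values in Usp18 (-0.64) and Ifit1 (-0.57). Of 20 matrix genes 11 were measured, 9 below 0, with a median of -0.16. Of 25 chemokines and cytokines 12 were measured, with Cxcl1 lower, Ccl5 at -0.87, Il18 at -0.75 and a median of -0.15. With arrays centred on their medians the unadjusted medians of these 3 lists turned to 0.00, 0.02 and 0.02, as all genes moved to 0.18. Of 22 genes of the G2 and M phases 19 were measured, 16 above 0 and none 2-fold apart, with a median of 0.10, whereas 21 measured genes of S phase had a median of -0.04. The 28 ribosomal protein genes had a median of 0.05. Of 24 genes of the FGF and IGF axis 17 were measured, with Igf1 higher, Fgf1 and Fgfr1 lower and a median of -0.12.

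**Figure D5:**
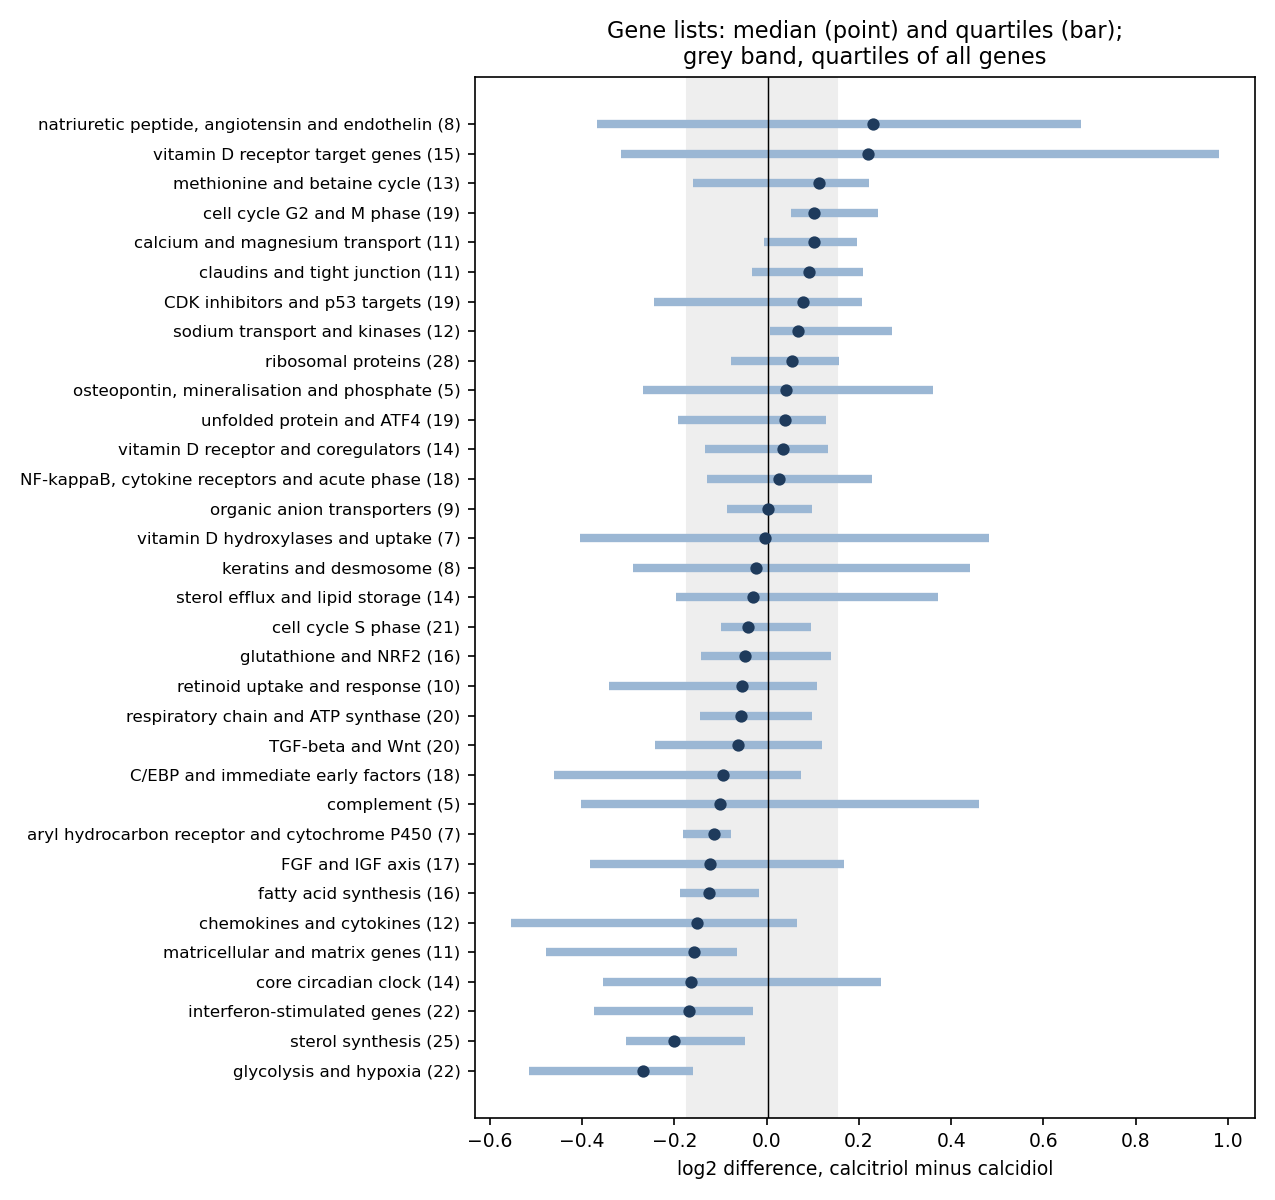
Median (point) and quartiles (bar) of the log2 difference, calcitriol minus calcidiol, for each gene list, with the number of measured genes in brackets; the grey band spans the quartiles of all 15755 genes and the vertical line is their median. Medians run from -0.27 for glycolysis and hypoxia to 0.23 for natriuretic peptide, angiotensin and endothelin genes, and the list of receptor targets has the widest bar.

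Markers of the labelled cell type were partly detected. Of 13 distal convoluted tubule markers, Pvalb, Wnk4, Kcnj10 and Kcnj16 were measured, with differences from -0.29 to 0.59, 8 were not well above background on either array, and the defining transporter Slc12a3 lay in the region left out. The measured ones were faint, from Kcnj16 at -1.89 with calcitriol down to Pvalb at -4.42 with calcidiol, near that array's floor of -4.48. Of 10 proximal tubule markers 8 were not well above background. The 2 measured were Lrp2, at 3.74 with calcitriol and 3.25 with calcidiol, and Aqp1, at 0.99 and 1.07. Of 10 renal epithelial markers 6 were measured, among them Cdh16, Pax2 and Pax8, with a median difference of 0.09, while Epcam, Cdh1, Krt8 and Krt18 were not well above background. Of 6 leukocyte markers 4 were measured, with differences from -0.27 to -0.03. Itgam was at 1.40 with calcitriol and 1.42 with calcidiol and Ptprc at -0.16 and 0.06, above the measured distal tubule markers. Cd68 (-1.97 and -1.70) and Cd3e (-2.99 and -2.88) were fainter. Of 11 collecting duct markers, Aqp2 (-2.33 and -2.32) and Aqp4 (-3.19 and -3.17) were measured. Spots well above background made up 49.9% with calcitriol and 49.7% with calcidiol, and the 75th percentiles of the signal were 379.9 and 401.1.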

How the data were processed

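Total RNA was labelled with Cy3 and hybridised to 1-colour Agilent mouse arrays, all on 1 slide and in 1 scan, per the labels' protocols and the file headers. The deposited scanner files give the spot intensity on a linear scale, background-subtracted and detrended by Agilent Feature Extraction 10.7.1.1 per the file headers (9.5.1.1 per the submitters' processing notes), with probes placed on mm9. The deposited value table, used as an alternative, holds 1 intensity per probe.

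Of 62976 spots an array, 59305 were not controls (56605 probes). Outlier-flagged spots and the outermost 6 rows and columns of 384 rows and 164 columns were left out, which kept 50888 probes (89.9%). No spot was saturated. Log2 signals minus the array's 75th percentile were computed, spots of a probe were averaged, and a gene was read at its brightest probe well above background on both arrays. Probes were named through RefSeq accessions (58.3%), otherwise by the design name. The median coefficient of variation of repeated probes was 6.07%, 7.91% and 3.42% for vehicle, calcitriol and calcidiol. Precision is limited by 1 array a group.

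No test was run. The counting step was checked on simulated data. Members and lists were chosen with earlier results of these data known. Genes with a symbol were named by a rule. It takes the 15 largest differences in each direction, the 5 largest bounds each way and list members at least 2-fold apart. It also takes the extremes of described lists and a fixed set of genes. The fixed set holds vitamin D and calcium genes and also others, such as Krt17, Cyp1b1, Npr3, C3, Cxcl1 and Postn. This set, like the lists, was chosen with earlier results of these data known. Genes named for another probe or for lying at the threshold, and other list members, were chosen after their values were seen. Some genes that the rule takes are left out of the text. Alternatives were centring, quantile normalisation, lowess over 0.3 of the genes, normexp with an offset of 50, an offset of 32, edge, outlier and background filters, the mean over probes, the value table and thresholds of 1.5-fold and 3-fold. The software was Python 3.11.15 (numpy 2.4.6, pandas 2.3.3, statsmodels 0.14.6 and matplotlib 3.10.9) and R 4.3.3 (limma 3.58.1).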

Additional observations from a re-analysis of the deposited data

How the results depend on the processing

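The counts of genes at least 2-fold higher and lower with calcitriol, 74 and 168, were 122 and 82 with each array centred on its median, 33 and 58 under normexp followed by quantile scaling, 46 and 64 after adding 32 to each signal, 221 and 513 when 1 array above background sufficed, 39 and 81 once the dimmest genes (under the 25th percentile) were dropped, 331 and 761 at 1.5-fold, and 22 and 24 at 3-fold. Counted over the genes whose other probe differed by at least 0.5 in the same direction, an alternative added after the data were seen, they were 10 and 6. Under the other alternatives the counts stayed within 1.5 times. Of the 74 and 168 genes, 74 and 82 were shared with median centring, 32 and 52 with normexp. The difference of Cyp24a1 was 4.08 with normexp and otherwise moved by less than its technical error. Of the 47 named genes at least 2-fold apart, 24 stayed so in every one of the 13 alternatives that gave them a value, 16 higher and 8 lower. Some alternatives are weak checks, because a filter mostly changes which genes are read and not a gene's own difference. Keeping outlier spots or accepting 1 array above background lost 0 of the 47. Dropping the dimmest genes gave a value for 29 of them and leaving out rows 7 to 48 for 35, and these also lost 0. Of the 47, Crot was the one that reversed, at 0.25 with all rows and columns kept, where its edge probe was read instead. Why the 2 probes of Crot differ was not tested. No paired analysis was possible because each group had 1 sample, and for the same reason no replicate could be left out. Signals near background limit the faint genes.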
